A study of Mus musculus with 8 samples.

Results

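Untreated thioglycollate-elicited peritoneal macrophages were described from 4 control arrays, control 1 to control 4, as the expression baseline of these cells. The members were all probes of the bead array with a detection p of 0.05 or less on each of the 4 arrays, which were 15136 of 45281 probes, or 33.4% of them. They belonged to 11099 of the 30789 gene symbols in the deposited table. The detection p compares the signal of a probe with that of the array's own negative control beads, so a probe that failed was not above background, which does not show that the transcript was absent. At the limit itself the steps were small: the 318 probes whose highest detection p lay between 0.04 and 0.05 had a median deposited signal of 57.0, and the 433 probes between 0.05 and 0.06 had one of 55.6.

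The cells came from C57/BL6 mice, 8 weeks old, and were kept for 24 h as the mock-treated controls of an experiment on acetylated LDL, whose 4 treated arrays were not compared here. According to the study's methods, the mice were adult males and thioglycollate had been injected into the peritoneum to draw cells there. The lavaged cells were plated and non-adherent cells were washed off. The methods then describe 24 h in medium with serum and with medium conditioned by L929 cells. Untreated therefore means without acetylated LDL, and not without conditioned medium. No marker-based sort is described, so the RNA is that of all cells that remained after plating, and fewer cells of a type cannot be told apart from less RNA per cell. The labels call the 4 samples biological replicates. Control 1 and 2 were hybridised on one BeadChip (chip 1) and control 3 and 4 on another (chip 2). Each BeadChip carries several arrays, and each probe is read from many beads.

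Thioglycollate is a sterile irritant that fills the peritoneal cavity with monocyte-derived macrophages over several days, while the large resident macrophages, which depend on the transcription factor Gata6, become a minority. Macrophages are phagocytes: they hold large lysosomes, store iron in ferritin, secrete lysozyme and carry receptors for antibodies, microbes and dying cells. They can also release cytokines and chemokines, many of which are transcribed only after a stimulus.

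The 4 arrays were alike in depth. Between 37.5% and 38.5% of probes were detected on each, and 56.5% of probes were detected on none. The median deposited signal of the member probes ranged from 151.9 on control 2 to 188.6 on control 1, against 37.7 to 40.1 for probes detected on no array. A probe was read from a median of 43 or 44 beads, and no member rested on fewer than 13. The arrays paired by chip: the rank correlation over the members was 0.990 and 0.991 within the chips and 0.969 to 0.972 between them. These correlations share the probes and describe the arrays only.

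Cytosolic ribosomal proteins were the most frequent of the named families among the 200 brightest probes, with 34. Of the 200, 56 were gene models or clones, a group added after the brightest probes had been seen. Levels below are log2 signals after background correction and quantile normalization, and ranks run from 1 for the brightest member. A probe's brightness depends on the probe as well as on its transcript, so ranks order probes and do not say that one gene had more mRNA than another. Quantile normalization also gives the arrays the same set of values, which makes the spread at the very top small by construction, and deposited signals are therefore given for the first probes.

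Fth1, the heavy chain of ferritin, had the brightest probe. Its deposited signals were 35120, 30360, 39640 and 37850 on control 1 to 4, lowest on control 2, which was the dimmest array. Psap, the precursor of the saposins that help lysosomal enzymes to degrade sphingolipids, gave 33850, 28670, 39720 and 36540 at rank 4. A probe labelled Lyz in the file stood at rank 5 with a level of 15.00 ± 0.06 (SD, n = 4), and a probe of Lyz2, the lysozyme of myeloid cells, at rank 16 with 14.75 ± 0.10. The lysozyme genes are near-identical in sequence, and the Lyz probe cannot be given to one of them with certainty.

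Some other genes among the brightest 25 have roles in lysosomes or phagocytes, but genes with such roles were not counted over all members. Cstb, an inhibitor of lysosomal cathepsins, reached 14.97 ± 0.14 at rank 6, and Ctsb, the cathepsin B protease itself, 14.54 ± 0.13 at rank 26. Mfge8, which bridges dying cells to phagocytes, reached 14.69 ± 0.04 at rank 18. Laptm5, a lysosomal membrane protein of haematopoietic cells, stood at 14.61 ± 0.14 at rank 24, and Lgals3, a galectin abundant in elicited macrophages, at 14.58 ± 0.07 at rank 25. Gpx1, a glutathione peroxidase, reached 14.67 ± 0.05 at rank 21. The other named genes of the 25 were the housekeeping genes Rplp1, Rps2, Rpl41, Rps29, Eef1a1, Ubb, Actb, Ppia and Rn18s. The remaining ones were gene models, LOC383981, LOC677551, LOC381799, LOC675813, LOC677215 and EG633120. The descriptions deposited for LOC677551, LOC675813 and LOC677215 name them as similar to ribosomal proteins, so their probes may read the parent genes.

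Below the first 25 and picked after their values were seen, Gpnmb, a glycoprotein of lipid-rich and lysosome-rich macrophages, had 14.44 ± 0.08 at rank 34, and Lpl, the lipase that frees fatty acids from lipoproteins, had 14.16 ± 0.34 at rank 58. Levels of Lpl were 13.81 and 13.92 on chip 1 and 14.44 and 14.46 on chip 2.

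By family, the best rank of a cytosolic ribosomal protein was 2. Of their 105 probes on the array, 83 were members (79.0% against 33.4% for all probes), with a median rank of 271. A further 16 of the 200 were gene models whose deposited description names a ribosomal protein. Actin cytoskeleton genes held 7 of the 200 (Actb, Arpc5 and Myl6 first), the respiratory chain and ATP synthase 6 (Atp5b, Atp5g3 and Ndufa13), mitochondrially encoded genes 6, translation factors 5 (Eef1a1, Eif3f and Eif4a1), cathepsins and cystatins 4 (Cstb, Ctsb and Cst3), S100 and annexin genes 4 (Anxa2, S100a11 and Anxa3) and ferritin 3. The mitochondrially encoded group was also added after the brightest probes had been seen. Only 4 of 6 ferritin probes were members, but their median rank was 31. The mitochondrial ribosomal proteins differed from the cytosolic ones in rank. Of their 129 probes 82.2% were members, yet none was among the 200 brightest and their median rank was 3376.

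Receptors of smell were nearly absent from the members. Of 1309 probes for olfactory receptors 10 were members (0.764%), and the brightest of them had a level of only 5.52, near the lowest member level of 4.83. Families were taken by symbol. Probes with vomeronasal receptor symbols had 1 member of 233, whose current gene name is Smarca5-ps. Of 132 cytochrome P450 probes 11.4% were members and of 96 protocadherin probes 5.21%. Of 125 probes whose symbols begin with Krt 7.2% were members, among them Krtcap2 and Krtcap3, which are not keratins. Homeobox clusters had 23.7% of 59 probes and collagens 30.9% of 94. Of 620 solute carrier probes 32.9% were members, close to the share of all probes. The brightest solute carrier was Slc11a1, the metal transporter of phagosomes, at rank 154. Of 78 probes for MHC genes and B2m 42.3% were members, led by B2m at rank 100.

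The brightest probes were much the same on each array. Of the 200 brightest of each array, 175 were shared by all 4. The 200 brightest carried 29.6% of the corrected signal of all members. Before normalization between arrays, which makes this share equal, it ranged from 28.7% to 30.3%. The median SD of a member over the 4 arrays was 0.173 on the log2 scale, the median SD within a chip 0.105 and the median bead error 0.0729.

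Probes named for transcripts outside the nuclear mRNA were also bright, and some are printed so that probes named for one transcript can be compared. They were not aligned, so the RNA that each reads is known by its deposited symbol only. The sequences are those of the deposited table, written 5′ to 3′ as listed there. The file gives no genome build, no capitals are used because the whole probe is the target, and each is 50 bases long.
Rn18s at rank 23: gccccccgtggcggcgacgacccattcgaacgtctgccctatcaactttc
Rn18s at rank 59: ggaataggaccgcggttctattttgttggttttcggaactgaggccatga
mtDNA_COXIII at rank 32: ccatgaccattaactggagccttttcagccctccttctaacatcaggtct
mtDNA_CytB at rank 39: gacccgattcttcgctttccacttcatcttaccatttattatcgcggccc
mt-Cytb at rank 62: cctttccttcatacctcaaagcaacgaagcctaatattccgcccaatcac

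The Rn18s probes are named for the RNA of the small ribosomal subunit and were at 14.63 ± 0.18 and 14.15 ± 0.27, with GC shares of 64% and 48%. A further Rn18s member probe, at rank 238, gave 12.89 ± 0.17. The mtDNA_CytB and mt-Cytb probes are named for the same mitochondrial gene, cytochrome b, and gave 14.38 ± 0.18 and 14.12 ± 0.24. Of 20 probes named for mitochondrially encoded genes, 16 were members and 6 were among the 200 brightest.

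Probes of one gene often disagreed. For the 3012 named genes with at least 2 member probes, the 2 brightest differed by a median of 1.09 on the log2 scale, and the 90th percentile of that difference was 3.46. Of 5098 genes with a member probe and at least one other probe, 51.2% also had a probe that was detected on no array. Eef1a1, the elongation factor at rank 8, was one of them, with 1 of its 3 probes not above background on any array. An undetected probe was thus found in many genes that another probe placed above background.

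The markers of macrophages were mostly detected. Of 12 genes, 9 were detected on all 4 arrays, against 46.9% of the 19018 protein-coding genes with a probe. Their levels differed widely between genes. Cd68, a lysosomal glycoprotein, was at 13.11, 13.23, 13.12 and 13.02 on control 1 to 4, with both chips overlapping. Emr1, the F4/80 antigen, was at 10.04 and 10.14 on chip 1 and at 11.50 and 11.66 on chip 2, with no overlap. Csf1r, the receptor for the macrophage growth factor Csf1, was at 8.89 and 8.48 on chip 1 and at 9.58 and 9.41 on chip 2. Itgam, the integrin chain CD11b, lay low in the range at rank 10043, with 5.49 and 5.88 on chip 1 and 6.94 and 7.06 on chip 2. Emr1, Csf1r and Itgam were each higher on chip 2, while Cd68 was not. Over all members 10.7% were called higher on chip 2 in the comparison of chips below. Cd14 (10.63 ± 0.50), Mrc1 (10.24 ± 0.83), Mertk (8.09 ± 0.35) and Fcgr1 (6.71 ± 0.61) completed the detected markers with Lyz2. The scavenger receptors Msr1, Marco and Cd163 were detected on no array, which does not show that they were absent. The study compared the protein SR-A, the product of Msr1, by western blot in peritoneal macrophages.

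Of 9 markers of resident peritoneal macrophages 5 were detected on all 4 arrays (55.6%) and 3 on none (33.3%), against 46.9% and 43.3% of protein-coding genes. Gata6, their defining transcription factor, was at 10.53, 10.46, 10.37 and 10.57, which was even across arrays. Vsig4, a complement receptor, was at 6.75 and 8.13 on chip 1 and 8.50 and 8.78 on chip 2. Garnl3, Icam2 and Rarb were also detected on all 4 arrays. Timd4, Alox15 and Prg4 were detected on none, and Ltbp1 on some arrays. Gata6 is also transcribed in mesothelial cells, whose markers were present in these samples.

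Stromal and mesothelial markers were detected at least as often as those of macrophages. Of 9 fibroblast genes 8 were detected on all 4 arrays, led by Dcn, a matrix proteoglycan, at 13.27 ± 0.20 (rank 169), highest on control 1 with 13.48 and lowest on control 3, so that the chips overlapped. Pdgfra, a growth factor receptor of fibroblasts, was at 10.26, 10.28, 9.67 and 10.28, and Col1a1, a collagen chain, at 10.05, 10.40, 9.62 and 9.66. Only Postn was detected on no array. Of 8 mesothelial genes with a probe 6 were detected on all 4 arrays and none on no array. Upk3b and Upk1b, uroplakins of the mesothelium, were at 11.45 ± 0.26 and 11.06 ± 0.27. The summed corrected signal of the fibroblast list ran from 11600 on control 3 to 15760 on control 1, and that of the mesothelial list from 4683 on control 3 to 6437 on control 1. The macrophage list ran from 37600 on control 1 to 47540 on control 4. Most of the macrophage sum came from Lyz2 and Cd68, and most of the fibroblast sum from Dcn.

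Acta2, the actin of smooth muscle and myofibroblasts, was named after its values were seen. Its brightest probe stood at rank 42 with 14.80, 14.38, 14.27 and 13.86 on control 1 to 4. Of its 5 probes 4 were members, all with the highest value on control 1 and the lowest on control 4, and the fifth was detected on no array. The part of stromal cells in the levels of Acta2, Gata6 and the collagens was not tested.

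Markers of most other blood cells were detected less often than protein-coding genes in general, of which 46.9% were on all 4 arrays and 43.3% on none. Of 12 neutrophil genes with a probe only S100a8 (9.28 ± 0.07) and Csf3r were detected on all 4 arrays, while S100a9, Lcn2, Ngp and Camp were detected on none. No eosinophil or adipocyte gene was detected on all 4 arrays. For B cells 1 of 9 was, Igh-6, the immunoglobulin mu chain, at 5.44, 7.70, 8.09 and 7.39, lowest on control 1. For T cells 4 of 12 were and 5 were on none (41.7%, near the general share), led by Il7r (11.02 ± 0.13), while Cd3d, Cd3g, Cd4 and Cd8a were on none. Cd8b1 was at 9.79 ± 0.15, but only 1 of its 3 probes was a member. Of 7 monocyte genes 3 were on all 4 arrays (Plac8, Hp and Cx3cr1) and 3 on none, and of 9 dendritic cell genes 3 were on all 4 (Dpp4, Batf3 and Itgax) and 4 on none, so the share on none lay near the general one for both. For NK cells 1 of 7 was, for mast cells and basophils 1 of 9, and for erythroid cells and platelets 1 of 8, Pf4, a chemokine that macrophages also make. For endothelial cells 2 of 9 genes were detected, Vwf and Flt1, while Pecam1, Cdh5 and Tek were on none. Of the proliferation markers 8 of 10 were detected, with Cdc20 the brightest at 9.12 ± 0.22 and Mki67 at 7.08 ± 0.51. All 4 Y-linked genes were detected, and no probe of Xist was on any array.

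Genes for signals and their receptors were listed to ask which of them stood above background without acetylated LDL. Of 550 listed genes with a probe 225 (40.9%) were detected on all 4 arrays, 79 on some and 246 (44.7%) on none. The matching shares over all protein-coding genes were 46.9% and 43.3%, so the lists as a whole lay near the background. They differed among themselves. The highest shares were those of TGF-beta family receptors (11 of 14), Toll-like receptors and partners (10 of 14) and the Siglec, TREM and CD300 receptors (18 of 27). The lowest were those of interferons (2 of 17), receptors for amines and acetylcholine (5 of 35), TNF superfamily ligands (3 of 17), chemokine receptors (5 of 24) and interleukins (8 of 35). Of the 246 genes detected on none 153 had a single probe.

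Few cytokines were above background. Among the interleukins the brightest was Il1rn, the antagonist of the IL-1 receptor, at 10.49, 10.47, 10.33 and 10.36, followed by Il15 (8.21 ± 0.52) and Il18 (7.64 ± 0.17). Il1a was at 7.62 ± 0.23, whereas Il1b, Il12a, Il12b, Il23a and Il27 were detected on no array, and Il6 and Il10 on 1 array each. Interferon probes above background were those of Ifnab (6.21 ± 0.07) and Ifna6 (5.50 ± 0.10). The type I interferon genes resemble each other closely, so these probes may be shared. Ifnb1 and Ifng were on none. Tnf, the best known TNF ligand, was at 5.43, 5.07, 5.65 and 5.50, near the lower end of the members, beside Tnfsf13b (5.88 ± 0.40) and Tnfsf9 (5.07 ± 0.15). The other ligands, among them Tnfsf10, Fasl and Cd40lg, were on none, apart from Lta on 1 array. No probe matched Tnfsf13, but a probe filed under Tnfsf12-tnfsf13 (Tnfsfm13), a joint transcript of neighbouring ligand genes outside the list, stood at rank 501 with 12.07 ± 0.17.

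Growth factors were detected more often, 26 of 44. Mif, a secreted regulator of macrophages, reached rank 102 at 13.81 ± 0.21. Grn, the precursor of the granulins, was at 13.21 ± 0.07, and Igf1, the insulin-like growth factor, at 11.70 ± 0.20. Csf1 was at 8.78 ± 0.25, whereas Csf2 and Csf3 were on no array. The brightest chemokines were Ccl4 (11.24 ± 0.60), Ccl9 (11.13 ± 1.02) and Ccl6 (10.35 ± 1.00). Their levels were higher on chip 2, as for Ccl9 at 9.93 and 10.71 against 11.64 and 12.24. Of all members 10.7% were called higher there. Cxcl2, Cxcl3, Ccl17, Ccl22 and Cxcl9 were on none.

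On the receptor side, Ccrl2 (8.68 ± 0.32) and Cxcr4 (7.25 ± 0.35) were among the 5 detected chemokine receptors, and Ccr1 and Ccr2, a receptor of monocytes, were on none. Cytokine receptors numbered 26 of 56. Il11ra1, a receptor chain for IL-11, stood at rank 146 with 13.48 ± 0.15, followed by Il7r and Csf2rb2 (9.51 ± 0.14). Il10ra, Il10rb, Ifngr1 and Ifngr2 were detected. Of the type I interferon receptor, Ifnar2 was detected at 6.45 ± 0.13 and Ifnar1 on no array. Of the TNF receptors 13 of 28 were detected, led by Tnfrsf21 (9.55 ± 0.39), Tnfrsf12a (9.07 ± 0.43) and Tnfrsf22 (8.29 ± 0.20), and both receptors of TNF itself were among them, Tnfrsf1b at 7.98 ± 0.14 and Tnfrsf1a at 6.85 ± 0.08.

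The receptors that sense microbes, antibodies and dying cells included some of the brightest. Of the Toll-like receptors and partners, Cd14, the co-receptor for endotoxin, led at 10.63 ± 0.50, followed by Tlr13 (10.18 ± 0.32), a sensor of bacterial ribosomal RNA, and Ly96 (9.77 ± 0.19), the partner of Tlr4. Tlr3, Tlr9, Tlr11 and Tlr12 were on no array. Fcer1g, the signalling chain shared by Fc receptors, stood at rank 95 with 13.41, 13.62, 14.18 and 14.17. Fcgr4 and Fcgr3, activating receptors for IgG, were at 11.69 ± 0.94 and 11.50 ± 0.47. Clec4d (12.61 ± 0.30), Clec7a (10.97 ± 0.75), the beta-glucan receptor dectin-1, and Mrc1 led the 11 of 25 C-type lectins detected. Sirpa, which reads CD47 on other cells, was at 12.96 ± 0.31, Trem2, a lipid-sensing receptor, at 12.93 ± 0.04 and Tyrobp, its signalling partner, at 11.76 ± 0.26.

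Receptor tyrosine kinases were led by Axl (12.12 ± 0.23), a receptor for Gas6 that takes part in clearing dying cells, with Ryk (10.27 ± 0.50) and Pdgfra next. Its ligand Gas6 was at 10.74 ± 0.34. Kit, Flt3 and Tek, receptors of progenitors and endothelium, were on none. Tgfbr2 (11.09 ± 0.25) and Tgfbr1 (10.13 ± 0.25), which bind TGF-beta together, were the brightest of their list. After them came a probe with the symbol 2610024H22Rik (8.99 ± 0.18), which was matched to a listed receptor as a synonym. Integrins were led by Itgb5 (10.06 ± 0.34), Itga3 (8.57 ± 0.13) and Itgb2 (7.80 ± 0.49), and 16 of 26 were detected. Of 47 nuclear receptors 17 were detected, led by the lipid sensors Pparg (9.50 ± 0.24), Rxrb (9.36 ± 0.46) and Nr1h3 (9.0 ± 0.17), while Nr3c1, Nr4a1 and Ppara were on none. S1pr2 (11.69 ± 0.13), Lpar6 (9.72 ± 0.43) and Cnr2 (8.48 ± 0.57) led the receptors for lipid mediators, 13 of 41. Of the amine receptors Htr2b (8.22 ± 0.47) and Adra2a (6.19 ± 0.53) were among those detected, and no dopamine receptor was on all 4 arrays.

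The 4 untreated arrays differed by chip in many genes. Between the chips, limma's test called 3285 of 15136 members at an adjusted p under 0.05, or 21.7%: 1622 (10.7%) were higher on chip 2 and 1663 (11%) lower. Each side of this comparison has 2 arrays, and chip, replicate, culture and mice cannot be told apart. Without normalization between the arrays 1556 were called, 1254 higher on chip 2 and 302 lower, so the even split depends on that step. Without control 1, 2, 3 or 4 in turn, 1099, 1257, 416 and 600 probes were called.

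Among the largest differences, Ddit3, a transcription factor of the stress response, was at 11.32 and 11.08 on chip 1 and at 8.37 and 8.22 on chip 2, a 7.49-fold lower level on chip 2 (log2 difference -2.91, SE 0.12, adjusted p = 0.00179). Its second member probe was also lower, by 5.88-fold. Gadd45b, induced by stress and DNA damage, was at 10.15 and 10.01 on chip 1 and at 7.71 and 7.90 on chip 2 (log2 difference -2.27, adjusted p = 0.00201). Saa3, an acute-phase protein of activated macrophages, stood at 12.89 and 13.14 against 11.05 and 11.13, and Cxcl1, a neutrophil chemokine, at 9.01 and 8.63 against 6.68 and 6.78. Soat2, H2-M2, Rpp25, Tmem114, Asic3 and Itgb7 completed the 10 that were lower on chip 2 by most, with log2 differences from -2.47 to -1.53 and adjusted p from 0.00346 to 0.00685. Soat2 was near background on chip 2 (deposited signals of 55.11 and 63.66, highest detection p 0.0363). Without background correction its difference was -1.84.

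In the other direction, Fcrls, an Fc receptor-like scavenger protein, was at 6.61 and 8.42 on chip 1 and at 10.38 and 11.28 on chip 2, a 9.98-fold higher level on chip 2 (log2 difference 3.32, SE 0.56, adjusted p = 0.0126). A probe filed under Msr2, now the same gene, was higher by 2.88, but was near background on chip 1 (deposited signals of 53.2 and 67.23, highest detection p 0.0385). The call of the first Fcrls probe, and those of Angptl7 and Cbr2 below, were lost with the trend and robust prior and when all probes of the array were tested. The difference of this Fcrls probe was 2.42 without control 1 and 4.22 without control 2, and that of Cbr2 1.20 and 2.49. Slco4a1, an organic anion transporter, was at 5.11 and 5.56 against 8.26 and 8.68 (difference 3.14, adjusted p = 0.00346). Its signals on chip 1 were near background (deposited signals of 60.56 and 64.12, highest detection p 0.0118), and the difference was 2.54 without background correction. Angptl7, a secreted protein of the angiopoietin-like family, was higher by 2.33 and Neat1, a nuclear non-coding RNA, by 2.03. E230029F23Rik, Ifi27l2a, Pld4 and Cbr2 were higher by 1.84 to 2.18. Of these, E230029F23Rik was also near background on chip 1 (deposited signals of 55.11 and 63.6, highest detection p 0.0278). Selenop and Stab1, a scavenger receptor, completed the 10, but only through one probe each at that size. The brighter Selenop probe was higher by 1.07, and the brighter Stab1 probe did not pass the test (0.04, adjusted p = 0.82).

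Some receptor lists leaned to chip 2 and others did not. The lists share genes, so their counts are not separate observations. Fcgr1, Mrc1, Cd14, Itgam and Csf1r, all called higher on chip 2, count as macrophage markers. They count again among the Fc receptors, C-type lectins, Toll-like receptor partners, integrins and receptor tyrosine kinases, respectively. Of 5 detected chemokine receptors 1 was called higher on chip 2 and 3 lower. Of 13 TNF receptors 3 were higher and 3 lower, and of 26 cytokine receptors 3 and 1. Of 16 integrins 5 were higher and 2 lower, and of 11 TGF-beta family receptors 2 and 0. Of the 9 detected macrophage markers 6 were called higher on chip 2 and none lower, with Emr1 higher by 1.49 (adjusted p = 0.00346) in its brightest probe and called higher in its other 2 probes as well. Of the 6 Fc receptors 5 were called higher, Fcgr4 by 1.59 (adjusted p = 0.00481) among them, and Fcgrt, the receptor that recycles IgG, was not (0.02, adjusted p = 0.904). Of 18 Siglec, TREM and CD300 genes 10 were called higher, such as Siglec1 (1.35), and 1 lower, Siglecg (-0.44). Of 11 C-type lectins 6 were higher, and of 10 Toll-like receptors and partners 5 were higher, Tlr7 by 1.47 and Tlr1 by 1.36, and 1 lower, Tlr5 (-0.73). Among the lipid mediator receptors 6 of 13 were higher, but 0 without control 3 and 2 without control 1 or control 4. These counts stand beside 10.7% of all members called higher and 11% called lower. The median differences were 0.811 for the macrophage markers, 0.865 for the Fc receptors and 0.518 for the Siglec, TREM and CD300 genes, against -0.0194 over all members. Lists of other macrophage types held few detected genes and did not lean upward. Alveolar (-0.344), Kupffer (-0.492), microglia (-0.529), red pulp (-0.559) and osteoclast (-0.395) markers had lower medians, and 0 were called higher. Of 3 microglia genes 2 were called lower, and of 2 red pulp genes 1. Of 5 resident peritoneal markers 1 was called higher, with a median of 0.012.

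Without normalization between the arrays, 6 macrophage markers, 5 Fc receptors and 10 Siglec, TREM and CD300 genes were called higher and none lower. All members leaned the same way in that setting, with 1254 called higher, 302 lower and a median difference of 0.0947. The medians of these 3 lists were 0.902, 0.99 and 0.637. When all 45281 probes of the array were tested, 675 were called higher and 701 lower. The upward calls then fell to 2 macrophage markers, 3 Fc receptors and 2 Siglec, TREM and CD300 genes. They fell to 3 C-type lectins, 3 Toll-like receptors and partners and 2 lipid mediator receptors. Leaving out single arrays left 2 to 4 calls upward for the macrophage markers, with 2 without control 3 or control 4. For the Fc receptors 1 to 5 were left, with 1 without control 3. For the Siglec, TREM and CD300 genes 3 to 8 were left, with 3 without control 1, control 3 or control 4. The C-type lectins kept 2 to 5, with 2 without control 3 or control 4. The Toll-like receptors and partners kept 3 whichever array was left out. Of 8 fibroblast genes 1 was called, Col1a1, lower on chip 2 by a log2 difference of -0.58 (adjusted p = 0.0288). The median of the list was -0.25, and Lum, a matrix proteoglycan, had the difference -1.05 (adjusted p = 0.0628). Without background correction 3 fibroblast genes were called lower, with the trend and robust prior 2, without control 1 2, and without control 2, control 3 or control 4 0. Of 6 mesothelial genes Krt8 was called higher on chip 2, a call lost without normalization between the arrays, over all probes and without any single array. How far the share of macrophages among the cells differed between the chips was not tested.

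Chemokines were called in both directions, 5 of 14 higher on chip 2 (Pf4, Ccl9, Ccl6, Ccl3 and Ccl4) and 4 lower (Cxcl1, Ccl7, Cxcl10 and Cxcl16). These stand beside 10.7% of all members called higher and 11% lower. Without normalization between the arrays 5 were higher and 1 lower, over all probes 0 and 1, with the trend and robust prior 1 and 5, without control 1 2 and 3, without control 2 5 and 1, and without control 3 or control 4 1 and 1. Receptor tyrosine kinases had 6 of 21 lower, among them Flt1 (-1.08) and Ddr1 (-1.02), and 1 higher, Csf1r (0.81), and without normalization 3 were lower. Over all probes and without control 3 the lower calls of this list were 1, without control 4 they were 2 and without control 1 they were 3. Nuclear receptors had 3 of 17 lower (Rxrb, Nr1h4 and Rora) and none higher, with 1 lower without control 3.

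The largest SD over the 4 arrays, 2.37, was that of the clone F830002E14Rik, at 7.21, 7.44, 8.49 and 12.32, where control 4 stood far above the others and the chip difference was not called (adjusted p = 0.0807). A probe of Arg1, the arginase of alternatively activated macrophages, was at 9.44, 11.20, 11.77 and 12.65 with an SD of 1.35, lowest on control 1 and not called either (adjusted p = 0.0512). The brighter Arg1 probe, at rank 323, was at 11.11, 12.59, 13.06 and 13.63 with an SD of 1.08 (adjusted p = 0.0556). The rest of the 10 members with the largest SD were probes of Fcrls, Slco4a1, Ddit3, Angptl7, Soat2 and Gadd45b, all called between the chips. Over all members 591 (3.90%) had an SD above 0.5 and 38 an SD above 1. The SD exceeded 2 bead standard errors in 58.7% of members over the 4 arrays and in 30.0% within a chip.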

How the data were processed

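RNA of 8 samples was labelled as cRNA and hybridised to Illumina Mouse WG-6 v2.0 BeadChips. The authors deposited a non-normalized BeadStudio table with, for each probe and array, the mean bead intensity, a detection p-value, the bead standard error and the number of beads. The counts of beads and the other values are used as deposited. Aligner and genome build do not apply or are not given in the sources used here.

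From the 4 control arrays, intensities were background-corrected with limma's neqc (version 3.58.1, R 4.3.3, offset 16, negative control moments inferred from the detection p-values), quantile normalized and put on the log2 scale. Bead standard errors were brought to that scale by dividing by the corrected signal. The chips were compared with lmFit and eBayes, with Benjamini-Hochberg adjustment over all members. A test on simulated data over the 15136 probes of that comparison drew independent noise for each probe. It made 0 false calls with nothing changed. It recovered 48.5% of probes changed by 1 on the log2 scale, with 4 false calls, and 92.0% of those changed by 2, with 3. Effects shared by the probes of an array were not simulated, so the test does not give the error rate of the chip calls. A listed gene counted as detected through any of its probes. Names came from RefSeq (34324 of 45281 probes matched), otherwise from the file, and 13242 of the members matched.

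Named were the markers, the brightest 25 genes, the brightest 3 of each list and of families with 3 or more of the 200 brightest probes, 10 genes each way between the chips and the 10 largest SDs, a gene being given by its brightest member probe, except that differences and SDs were ranked by probe. Some genes that this rule names are not reported here. Genes outside it were named after their values were seen. The members and lists were chosen with earlier results of these data known. The number of arrays limits the precision. Alternatives covered the detection limit, background correction, normalization, the variance prior and leaving out each array. The treated arrays entered one alternative normalization.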

Additional observations from a re-analysis of the deposited data

Results flagged for a closer look

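Among 176 probes named by rule, 3 had one array far from the other 3, by the gap to the nearest array over the whole range of 4 (past Dixon's critical value for 4 samples). About 1 in 20 sets is flagged by chance, or 8.8 of 176. Pdgfra was lowest on control 3, at 9.67 against 10.26 to 10.28 (gap share 0.959). Plk1, a mitotic kinase, was lowest on control 2, at 8.55 against 8.89 to 8.92 (0.923). Ifnab was highest on control 3, at 6.31 against 6.17 to 6.19 (0.901).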

How the results depend on the processing

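No paired analysis was possible because the chips hold different replicate numbers and share none. The counts of members (13177 with a detection p of 0.01, 16342 with detection on at least 3 arrays), of symbols and of list genes kept within 1.5 times under both detection rules and without each array. The counts of ribosomal, translation, respiratory and actin probes among the 200 brightest did so under the 8 alternatives run for them, and the 175 shared probes without background correction, without normalization between arrays and with all 8 arrays normalized. No count of genes on no array was defined for detection on at least 3 arrays. The signal share of the 200 brightest was 28.0% without background correction. The 3285 chip calls became 1556 without normalization between arrays, 1376 over all probes, 5831 at an unadjusted p under 0.05 and 416 to 1257 when leaving out one array in turn. Among the sets at an adjusted p under 0.05 the largest, 4350, came with the trend and robust prior and held 95.6% of the 3285, whereas the 416 calls without control 3 held 12.4% of them. The brighter Stab1 probe, not called at 0.04, ran from -0.0271 without control 3 to 0.1064 without control 4 when leaving out arrays, was -0.0075 without control 2, and was 0.155 without normalization between arrays. Fcrls, Angptl7 and Cbr2 were not called with the trend and robust prior, nor, with Ifi27l2a, over all probes. Without control 3 the calls of these 3 and of Selenop were lost, without control 4 those of Fcrls, Cbr2 and Selenop, and without control 1 that of Cbr2. With 3 arrays, 1 chip has a single array, whose spread is assumed to be that of the others. The causes were not tested.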

Other observations

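Detection varied with the base composition of the probes. Of the 3517 probes with less than 40% GC 5.89% were members, against 26.7% of those between 40% and 45% and 34.8% to 37.6% of the bins above. Over the members, GC share and level had a rank correlation of -0.03 (n = 15136 probes that share arrays and targets). Of the 246 listed genes detected on no array 22 had only probes below 40% GC.

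By chromosome, the share of members ran from 35.9% on chromosome 7 to 46.6% on chromosome 5 among the autosomes, was 32.6% on X and 4 of 46 probes on Y, and was 23.2% for the 18397 probes with no chromosome in the file.

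Plac8 and Hp, listed as monocyte genes, were lower on chip 2 (log2 differences -0.95 and -0.92 in limma's test, adjusted p = 0.00758 and 0.0314), and Cx3cr1 of the same list was higher (1.67, adjusted p = 0.00745). Neither lower call remained without control 3, and 1 of them was left without control 2 or control 4 and over all probes, where the call of Cx3cr1 was lost. Aurkb, Mki67 and Top2a of the proliferation list were higher on chip 2 by 0.80, 0.85 and 0.60 (adjusted p = 0.00769, 0.0091 and 0.0386), and the other 5 detected members did not pass. The calls of both lists stand beside 10.7% of all members called higher and 11% lower. Of the proliferation calls 0 were left without control 4, 1 without control 3, and 2 without control 2 or over all probes.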
